A study of Mus musculus with 3 samples.

Results

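The genes described here encode the proteins of the cytoplasmic ribosome. They were taken by symbol, as every gene named Rpl or Rps followed by a digit together with Rplp0, Rplp1, Rplp2 and Rpsa, without the pseudogenes with the ending -ps and without the kinases named Rps6k. The rule found 86 of the 17931 genes of the count table. Of these, 46 encode standard proteins of the large subunit and 31 standard proteins of the small subunit, which makes 77 standard members, and 8 are paralogs of standard members. Rps19bp1 also met the rule, although it encodes a nucleolar protein that binds Rps19 and not a ribosomal protein. The members lay on 19 chromosomes, with 14 of them on chromosome 7. The 3 pseudogenes left out, of which Rpl10-ps3 is an example, held 24615, 7536 and 41347 UMIs (unique molecular identifiers, counted 1 per captured transcript).

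Corneas of C57BL/6J mice under homeostasis were pooled into 3 libraries, all of 1 group, whose epithelial cells were sequenced singly. Library 1 was made from 4 corneas of 2 males at 20 weeks, library 2 from 4 corneas of 2 females at 11 weeks, and library 3 from 7 corneas of 7 males at 10 weeks. The tissue was freed with an enzyme and dissociated with trypsin before droplet capture, and transcripts were counted at their 3′ ends. Classes of cells are those that the authors deposited, with 737 cells labelled LSC (limbal), 4136 TAC1, 3186 TAC2, 5240 Squam (superficial), 13447 wing, 2422 Conj (conjunctival), 114 immune and 8829 basal, and the basal class is the one the others are set against.

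A ribosome joins a small subunit, which reads the messenger RNA, to a large subunit, which forms the peptide bond, and each subunit needs its proteins in about equal number. In mammals the transcripts of these proteins begin with a run of pyrimidines, the 5′ TOP motif, through which the kinase mTOR and the RNA-binding protein Larp1 control their translation together. In the stratified epithelium of the cornea, basal cells divide on the basement membrane, wing cells lie above them, and flat superficial cells at the surface are shed into the tear film.

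The start of the transcript was read from RefSeq promoter entries (GRCm38.p6), which were found for 66 of the 86 members. A C at the annotated start followed by at least 4 bases that are C or T, on the strand of the gene, was present in 14 of these 66 (21.2%), against 391 of the 12883 genes of the table with an entry (3.04%). Among nuclear genes for proteins of the mitochondrial ribosome it was present in 0 of 69, and among 13 other genes known for a 5′ TOP motif in 5 (38.5%). The 6 letters CTTTCC, searched on the strand of the gene within 10 bases of the start, where they can overlap the first motif, were in 10 members with an entry (15.2%) and in 1.07% of all genes with an entry. Entries give 1 start a gene, so a member without a match has no such run at that start. This does not show that its transcript lacks a 5′ TOP motif, since only 5 of the 13 other genes known for one matched. The stretches below show 9 members with the run, each with 15 bases before the annotated start and 15 from it. Rpl15, Rpl35 and Rps10 have the longest runs of the 14, of 13, 11 and 10 bases, Rps27 and Rps27rt are a standard member and its near-copy, and the others are named in the results below. Capitals mark the run of C and T that begins at the start.
Rpl15 (chr14:18270972-18271001, minus strand): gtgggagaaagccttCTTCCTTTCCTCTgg
Rpl28 (chr7:4792950-4792979, plus strand): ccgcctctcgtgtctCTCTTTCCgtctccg
Rpl35 (chr2:39005117-39005146, minus strand): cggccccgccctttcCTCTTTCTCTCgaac
Rpl35a (chr16:33056467-33056496, plus strand): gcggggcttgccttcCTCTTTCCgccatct
Rps10 (chr17:27635230-27635259, minus strand): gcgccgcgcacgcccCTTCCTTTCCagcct
Rps18 (chr17:33955651-33955680, minus strand): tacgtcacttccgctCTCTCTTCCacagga
Rps6 (chr4:86857353-86857382, minus strand): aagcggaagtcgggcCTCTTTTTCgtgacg
Rps27 (chr3:90213634-90213663, minus strand): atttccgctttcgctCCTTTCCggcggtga
Rps27rt (chr9:114982725-114982754, minus strand): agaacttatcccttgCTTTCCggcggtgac

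Rps27, a small-subunit protein with a zinc finger, and its retrogene copy Rps27rt share a stretch of 14 bases that begins at base 2 of Rps27 and at base 1 of Rps27rt, counted from 1 at the annotated start. Reads at the 3′ ends of such copies can be split between them, and the levels of Rps27 and Rps27rt, of Rpl36a and Rpl36al, and of members with processed pseudogenes are uncertain for that reason. A transcript is counted once whatever its length, so levels are not divided by length, and how well each 3′ end is captured was not measured.

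The libraries held 9488, 11273 and 17350 cells with 187340736, 177449217 and 190393121 UMIs, and pairs of libraries shared 32 to 57 cell barcodes. Mean levels of markers in counts scaled to a total of 1000000 UMIs for the class (CPM) were 2700.0 for Gpha2 in limbal cells, 354 for the division gene Mki67 in TAC2 cells, 71.4 for the replication gene Mcm2 in TAC1 cells (7.19 in basal cells), 2270.4 for the mucin Muc4 in superficial cells, 3237 for the keratin Krt4 in conjunctival cells and 399 for Ptprc in immune cells. Each of these genes had its highest mean in the class named. Not all markers did so. Krt15, listed for limbal cells, was higher in conjunctival (25402 CPM) than in limbal cells (8912 CPM). Of the 7 markers listed for limbal cells, Cd63 and Atf3 were highest in immune cells and Mt1 in TAC2 cells. The 7 summed to 15321 to 17500 CPM in limbal and 22802 to 28374 CPM in conjunctival cells. Krt5, listed for basal cells, was higher in wing (10163 CPM) than in basal cells (5639 CPM). Col17a1, also listed for basal cells, was highest in TAC1 cells, and Dsc2, listed for wing cells, in conjunctival cells. Of the 4 markers listed for TAC1 cells, Mki67 and Top2a were lower in TAC1 (16.9 and 42.3 CPM) than in TAC2 cells (354 and 465 CPM), and the sum of the 4 was 319 to 361 CPM in TAC1 and 923 to 1086 CPM in TAC2 cells. How the authors made the labels was not stated in the sources used here. They may rest partly on the genes described here, so a p-value between classes measures how steadily the 3 libraries show a difference, not whether the classes exist. The libraries differ in the age, sex and number of mice, and each comparison sets 2 classes of the same libraries against each other.

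Transcripts of ribosomal protein genes filled about 33.2% of the UMIs of basal cells and a much smaller part of those of superficial cells. In superficial cells the share was 6.26, 6.46 and 6.26% in libraries 1, 2 and 3, with a mean of 6.32 ± 0.118% (SD, n = 3). It was 18.8, 19.7 and 19.1% in wing cells (19.2 ± 0.468%, n = 3) and 13.1, 13.3 and 13.9% in conjunctival cells (13.4 ± 0.413%, n = 3). These 3 classes overlapped neither with one another nor with any other class. The share was 29.4, 29.98 and 29.6% in limbal cells, 33.2, 33.01 and 35.3% in TAC1 cells, 30.2, 29.9 and 30.4% in TAC2 cells and 29.00, 27.6 and 28.1% in immune cells, against 32.3, 33.02 and 34.2% in basal cells. The libraries of TAC1 and basal cells overlapped, while those of limbal, TAC2 and immune cells all lay below the basal ones. From high to low, the order of the means was TAC1, basal, TAC2, limbal, immune, wing, conjunctival and superficial, and the ranges of the neighbours TAC1 and basal overlapped, as did those of TAC2 and limbal cells.

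Counted per cell and not as a share, wing cells held more transcripts of the members than basal cells and superficial cells fewer. A superficial cell held on average 1471, 1299 and 710.0 UMIs of the members in the 3 libraries, a wing cell 4825, 4073 and 2793, and a basal cell 4009, 3208 and 2221. UMIs of all other genes numbered 22043, 18806 and 10638 per superficial cell, 20870.0, 16602 and 11834 per wing cell and 8395, 6508 and 4268 per basal cell. Wing cells thus had a lower share with a higher number per cell in every library, whereas superficial cells had a lower share and a lower number. Limbal cells held 4274, 3680 and 2271 UMIs of the members per cell, and TAC2 cells 4586, 4051 and 2597. Both also had a lower share with a higher number than basal cells in every library. UMIs per cell also depend on how much of a cell's RNA is captured, which was not measured. Mitochondrial transcripts made up 1.08, 0.989 and 1.20% of the UMIs of superficial cells and 1.86, 1.87 and 2.17% of those of basal cells, and their part in the difference was not tested.

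**Figure D1:**
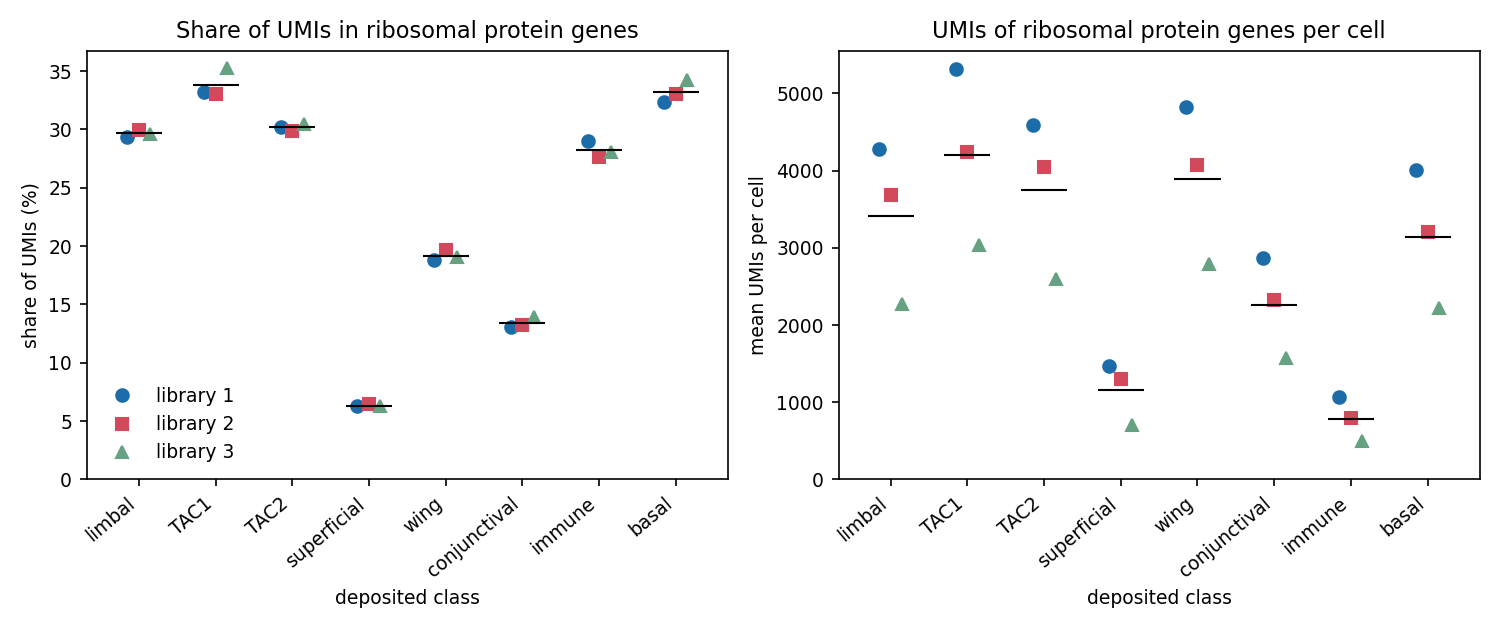
Share of UMIs in the 86 ribosomal protein genes (left, percent) and UMIs of these genes per cell (right), by class of cell, with 1 point per library and a line at the mean of 3. Superficial cells lie lowest in the left panel, between 6.26 and 6.46%, and wing cells lie above basal cells of the same library in the right panel.

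Single cells were compared after each was thinned at random to 2000 UMIs, which leaves out cells with fewer. Of the 86 members, the median superficial cell then showed at least 1 UMI for 52 to 53, the median wing cell for 76 and the median basal cell for 79. The wing class was broad, with shares between the 10th and the 90th percentile of its cells of 9.10 to 29.6%, 9.55 to 29.9% and 8.70 to 29.9% in libraries 1, 2 and 3. Each cell was also matched, without thinning, to the class with the nearest mean profile, computed without the ribosomal protein genes. Of the wing cells 1602 were nearest to basal cells, with shares of 28.97, 29.1 and 30.2% of their UMIs before thinning. The 9881 wing cells nearest to their own class had 19.4, 20.7 and 19.9%, the 1467 nearest to conjunctival cells 10.3, 10.5 and 10.2%, and the 480 nearest to superficial cells 7.64, 8.26 and 7.46%. Shares within the deposited wing class ran with the profile of the other genes, and the order was the same in each library.

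**Figure D2:**
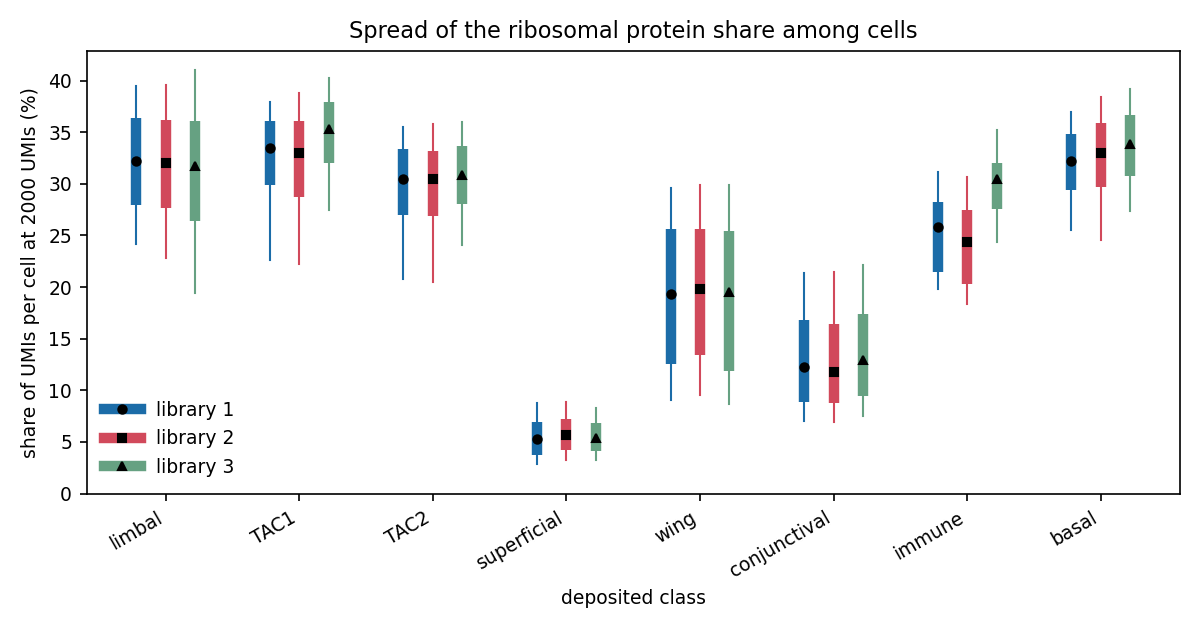
Share of UMIs in ribosomal protein genes per cell after thinning to 2000 UMIs (percent), by class and library, with the median as a marker, quartiles as a bar and the 10th to 90th percentile as a thin line. The wing class spans most of the range between superficial and basal cells, as the percentiles in the text give.

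Superficial against basal cells gave the largest median difference of the members among the 8 comparisons. Of 84 members with enough counts to test, 82 were lower in superficial cells and 0 higher (edgeR quasi-likelihood test, adjusted p under 0.05), where 45.2% of all genes tested were lower and 41.3% higher. An unadjusted p under 0.05 gave 0 higher members, and DESeq2 0. All 46 large-subunit and all 31 small-subunit members were lower, with median log2 fold changes of -1.30 and -1.41. Over the members the median was -1.29, against -0.11 over all genes tested. These values use TMM scaling, which sets the bulk of genes near 0. Scaling by total UMIs, chosen after seeing the data, moved the median of all genes to -1.26 and that of the members to -2.44, and the members' median minus that of all genes was -1.18 on the TMM scale and -1.18 on the total scale. The 6 measured conjunctival markers summed to 9022 to 10035 CPM in superficial and 85.8 to 161 CPM in basal cells, with none at 0, and their part in the result was not tested.

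The steepest member was Rpl12, a protein at the base of the stalk that binds elongation factors. Its TMM-scaled CPM were 385, 356 and 412 in superficial cells, against 1892, 1736 and 2406 in basal cells of libraries 1, 2 and 3, a log2 fold change of -2.38 ± 0.084 (SE of the fit, with an edgeR adjusted p of 1.96e-13). The groups were far apart, and every superficial library lay below every basal one. Rps19, a protein of the small-subunit head that is mutated in Diamond-Blackfan anaemia in humans, had 582, 721 and 536 TMM-scaled CPM in superficial cells, against 2742, 3008 and 2831 in basal cells (log2 fold change -2.23 ± 0.086 SE, edgeR adjusted p = 5.97e-13). Rpl36a of the large subunit had 350.4, 332 and 291, against 1470.2, 1426 and 1559 (log2 fold change -2.20 ± 0.087 SE, edgeR adjusted p = 8.97e-13). Neither gene overlapped between the classes. Rpl3, which reaches towards the peptidyl transferase centre, had a log2 fold change of -2.13, and Rpsa, which also serves as a laminin receptor, one of -1.95. Rpl13, the most abundant member over all sums, had 2112, 2384 and 2169 TMM-scaled CPM in superficial cells, against 7886, 8599.9 and 8651 in basal cells (log2 fold change -1.92 ± 0.079 SE, edgeR adjusted p = 1.33e-12).

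**Figure D3:**
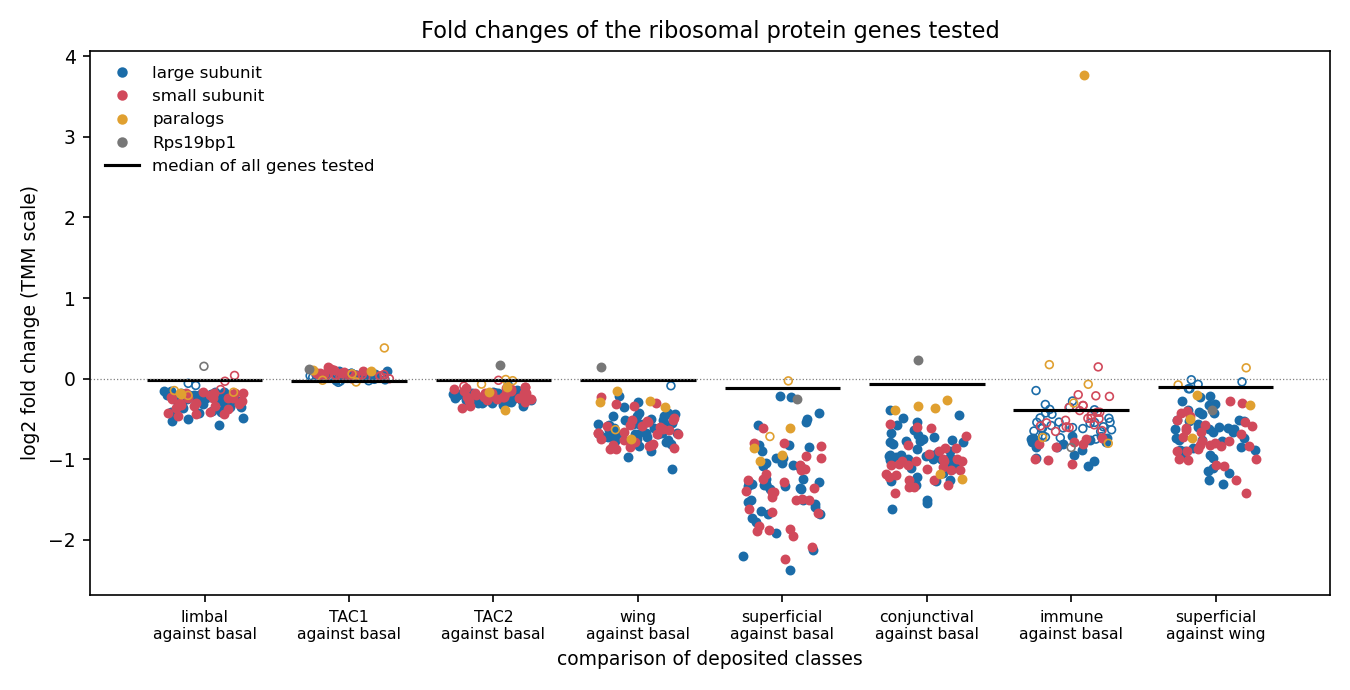
Log2 fold change of every member tested in each of the 8 comparisons (TMM scale), with 1 point per gene, filled where the edgeR adjusted p was under 0.05 and open otherwise, and a black line at the median of all genes tested. Members cluster below the line by more than a unit in superficial against basal cells and near it in TAC1 against basal cells, where the medians were -1.29 and 0.040.

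A few members were close to their basal level in superficial cells. Rplp0, the stalk protein that carries Rplp1 and Rplp2, had 3588, 4600.4 and 3309 TMM-scaled CPM in superficial cells, against 4325, 5126 and 4004 in basal cells, a log2 fold change of -0.23 ± 0.076 (SE of the fit, with an edgeR adjusted p of 0.00928). Each superficial library lay below the basal sum of the same library, but the ranges overlapped. Rpl23a, a protein at the exit of the peptide tunnel, had 586, 528 and 641 in superficial cells, against 654, 588 and 809 in basal cells (log2 fold change -0.22 ± 0.075 SE, edgeR adjusted p = 0.0141), also with overlapping ranges. Rpl36al, the paralog of Rpl36a, had 564, 755 and 524, against 586, 636 and 635, and did not pass the test (log2 fold change -0.028 ± 0.093 SE, edgeR adjusted p = 0.787). Rpl41, which encodes a very short peptide at the joint of the subunits, had 3294, 3986 and 2907 in superficial cells, against 4539, 4882 and 4134 in basal cells, and a log2 fold change of -0.42. On the scale of total UMIs all 84 tested members were lower, with -1.39 for Rplp0, -1.37 for Rpl23a and -1.18 for Rpl36al.

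**Figure D4:**
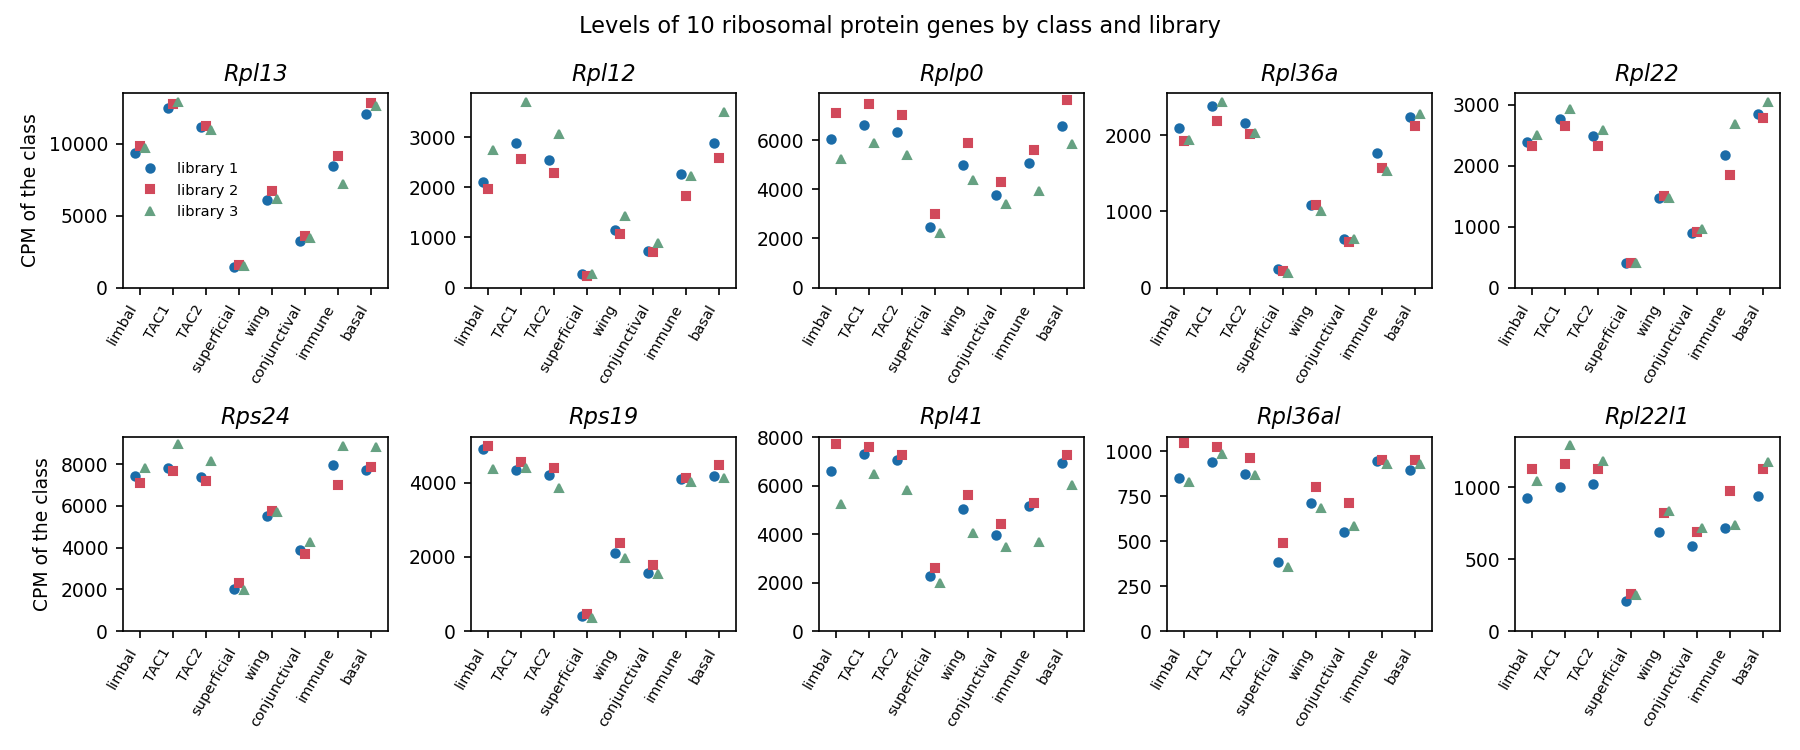
Levels of 10 members in the 8 classes, in CPM of the class's own UMIs on a linear axis from 0 that differs between panels, with 1 point per library. Rpl13 averages 1487 CPM in superficial and 12490.2 CPM in basal cells, and Rplp0 2560.2 CPM in superficial and 6693 CPM in basal cells.

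With the sum of the members as the scale, the question becomes which members departed from the rest. In superficial against basal cells 26 members were higher than the ribosomal protein sum and 29 lower, where 65.5% and 19.8% of all genes tested were higher and lower on that scale. The large subunit had 14 higher and 14 lower, and the small subunit 6 higher and 15 lower. On this relative scale Rpl36al differed by 1.21, Rpl23a by 1.02, Rplp0 by 1.003, Rpl41 by 0.82, Rpl28 by 0.73 and Rpl10, a late-joining large-subunit protein, by 0.70 log2 units. At the other end stood Rpl12 with -1.14, Rps19 with -0.996, Rpl36a with -0.96 and Rpl3 with -0.89. All of these passed the test on this scale. Among the members taken by symbol, those named at the upper end are of the large subunit, with Rpl36al as a paralog. Those named at the lower end come from both subunits. Rps19bp1, which is not a ribosomal protein, differed by 0.99 and also passed, and the highest small-subunit member differed by 0.62. Of ribosomal protein genes outside the rule, described below, Fau had 1.05, above Rpl23a and Rplp0, and Rack1 -0.38 on this scale. The subunits of the members named at the ends therefore do not stand for all ribosomal protein genes. The stalk had Rplp0 at one end and its neighbour at the stalk base, Rpl12, at the other.

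**Figure D5:**
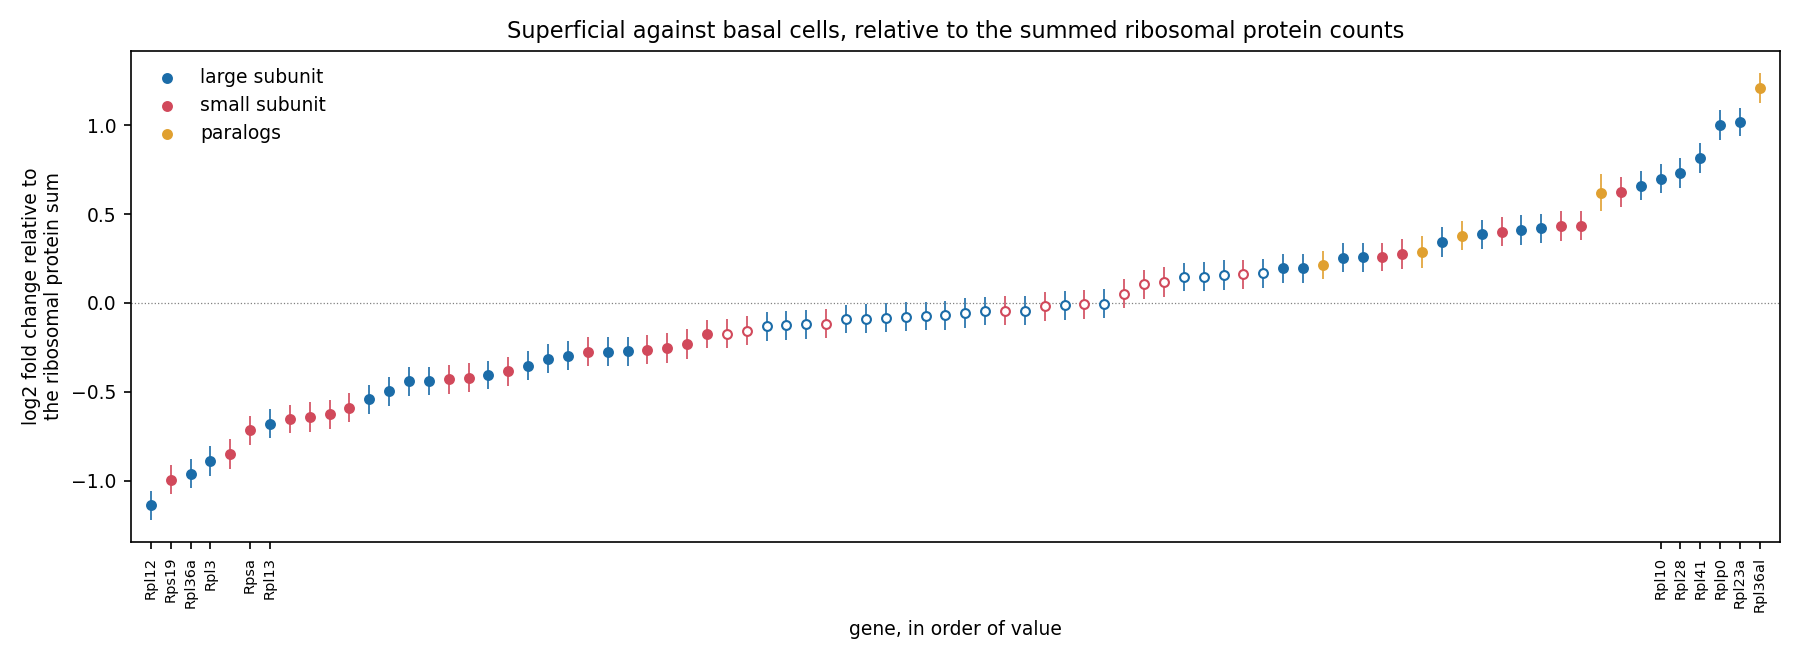
Log2 fold change of each member in superficial against basal cells relative to the sum of the ribosomal protein genes, with SE of the fit, filled where the edgeR adjusted p was under 0.05; Rpl39l and Rps19bp1 are not drawn, and names are printed for some of the members described in the text. Values run from -1.14 for Rpl12 to 1.21 for Rpl36al, and 0 marks a member that moved with the sum.

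UMIs of the large-subunit members divided by those of the small-subunit members gave 1.51 ± 0.00995 in superficial cells, 1.41 ± 0.0204 in conjunctival cells, 1.34 ± 0.0166 in wing cells, 1.22 ± 0.0293 in immune cells and 1.32 ± 0.0104 in basal cells (SD, n = 3 libraries each). The ratio was highest in superficial cells in every library. The 77 standard members kept most of their order of levels, since the Spearman correlation of their mean CPM with those of basal cells was 0.973 for wing, 0.945 for conjunctival and 0.833 for superficial cells, with library and capture shared by all points. In superficial cells Rplp0 replaced Rpl13 as the member with the highest mean level, and in conjunctival cells Rps24 did.

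Superficial against wing cells showed the step within the upper layers. Of 84 members tested, 77 were lower in superficial cells and 0 higher, where 41.8% of all genes tested were lower and 37.9% higher. An unadjusted p under 0.05 gave 0 higher members, and DESeq2 1. The median was -0.65 over the members and -0.099 over all genes, and -1.62 and -1.08 on the total scale. Rps19 led with 542, 683 and 506 TMM-scaled CPM in superficial cells, against 1494, 1702 and 1401 in wing cells (log2 fold change -1.42 ± 0.060 SE, edgeR adjusted p = 7.58e-12), without overlap. Log2 fold changes were -1.30 for Rpl36a, -1.25 for Rpl12 and -1.17 for Rpl35a, a large-subunit protein. All 31 small-subunit members were lower (median -0.78), and 41 of 46 large-subunit members (median -0.63).

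The 7 members that did not pass between superficial and wing cells were Rpl41, Rpl23a, Rpl39l, Rpl10, Rpl28, Rplp0 and Rpl36al. Rpl36al had 526, 716 and 494 TMM-scaled CPM in superficial cells, against 502, 575 and 487 in wing cells (log2 fold change 0.13 ± 0.065 SE, edgeR adjusted p = 0.0697), and the value turned to -0.84 on total UMIs. Rplp0 had 3345, 4358 and 3118, against 3539.5, 4234 and 3123 (log2 fold change -0.014 ± 0.059 SE, edgeR adjusted p = 0.832). Both genes overlapped between the classes. Relative to the ribosomal protein sum 23 members were higher and 34 lower in superficial cells, beside 57.3% and 21.1% of all genes.

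In wing against basal cells 81 of 84 members tested were lower and 1 higher, where 38.7% of all genes tested were lower and 38.8% higher. The 1 higher was Rps19bp1, which does not encode a ribosomal protein. The median was -0.63 over the members and -0.018 over all genes, and -0.81 and -0.20 on the total scale. The subunits moved alike, with 45 of 46 large-subunit members lower (median -0.63) and all 31 small-subunit members (median -0.66). Rpl12 was the steepest here too, with 1212, 1165 and 1506 TMM-scaled CPM in wing cells, against 2658, 2437 and 3364 in basal cells (log2 fold change -1.12 ± 0.047 SE, edgeR adjusted p = 4.83e-10). Rpl3 had 1629, 1676 and 1379 in wing cells, against 3210.3, 3353 and 2631 in basal cells (log2 fold change -0.97 ± 0.046 SE, edgeR adjusted p = 1.49e-09). Neither gene overlapped between the classes. Rpl36a with a log2 fold change of -0.89, Rps18 with -0.88 and Rps6, the substrate of the S6 kinases, with -0.87 came next.

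At the flat end in wing cells, Rpl23a had 850.5, 859 and 977 TMM-scaled CPM, against 919, 825 and 1131 in basal cells, and did not pass (log2 fold change -0.088 ± 0.056 SE, edgeR adjusted p = 0.165). Among members lower in wing cells the smallest differences were those of Rpl36al (-0.16) and Rplp0 (-0.22). Relative to the ribosomal protein sum 26 members were higher and 26 lower, beside 67.3% and 15.9% of all genes. The summed level of 6 measured conjunctival markers was 6457 to 6734 CPM in the wing libraries and 85.8 to 161 CPM in the basal ones, with none of the 6 at 0. With classes reassigned by the other genes 82 members were lower in wing cells.

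Conjunctival cells also had less of nearly every member than basal cells. Of 84 tested, 83 were lower and 1 higher, where 40% of all genes tested were lower and 37.3% higher. As in wing cells, the 1 higher was Rps19bp1, which does not encode a ribosomal protein. The median was -0.99 over the members and -0.066 over all genes (-1.32 and -0.39 on the total scale). Rpl12 had 824, 788 and 994 TMM-scaled CPM in conjunctival cells, against 2519.7, 2331 and 3192 in basal cells (log2 fold change -1.62 ± 0.054 SE, edgeR adjusted p = 1.43e-11). Rpl13 had 3623, 4044 and 3871, against 10504, 11545 and 11474 (log2 fold change -1.54 ± 0.046 SE, edgeR adjusted p = 4.53e-12). The classes stood apart in every library for both genes. The other steep members were Rpl36a with a log2 fold change of -1.51, Rps18 with -1.42 and Rps15a with -1.35. Rpl36al had 616, 801 and 649 in conjunctival cells, against 780.3, 854 and 842 in basal cells (log2 fold change -0.27 ± 0.065 SE, edgeR adjusted p = 0.00211), with overlapping ranges. Relative to the ribosomal protein sum 28 members were higher and 24 lower, beside 68.9% and 14.5% of all genes.

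Superficial, conjunctival and wing cells were all set against the same basal sums, so their fold changes are given side by side without a measure of likeness. The log2 fold change of Rpl12 was -2.38 in superficial, -1.62 in conjunctival and -1.12 in wing cells. That of Rpl36a was -2.20 in superficial, -1.51 in conjunctival and -0.89 in wing cells, and that of its paralog Rpl36al -0.028 in superficial, -0.27 in conjunctival and -0.16 in wing cells. For Rpl12 and Rpl36a the value was largest in superficial cells, and for Rpl36al it stayed small in all 3. The log2 fold change of Rplp0 was -0.23 in superficial, -0.48 in conjunctival and -0.22 in wing cells, and that of Rps24 of the small subunit -0.80 in superficial, -0.72 in conjunctival and -0.34 in wing cells. The 13 standard members with the pyrimidine run at their start had median log2 fold changes of -1.55 in superficial, -1.09 in conjunctival and -0.69 in wing cells. The 44 standard members with another start had -1.31, -0.995 and -0.65 in the same order of classes, and the 20 without an entry -1.24, -0.87 and -0.61, with no test made.

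Limbal cells, the class with the limbal marker Gpha2, had slightly less of most members than basal cells on the TMM scale, though not per cell. Of 83 members tested (Rpl39l had too few counts here) 74 were lower and 0 higher, where 18.8% of all genes tested were lower and 21.4% higher. An unadjusted p under 0.05 gave 0 higher members, and DESeq2 0. The median was -0.25 over the members and -0.011 over all genes, and -0.13 and 0.10 on the total scale. Rpl17 of the large subunit had 2684, 2621 and 3029.8 TMM-scaled CPM in limbal cells, against 3974, 3854 and 4581 in basal cells (log2 fold change -0.57 ± 0.057 SE, edgeR adjusted p = 3.18e-12), without overlap. Log2 fold changes were -0.52 for Rpl12, -0.51 for the stalk protein Rplp2, -0.49 for Rpl13 and -0.46 for Rps7. Rps19 had 4671, 4808 and 4246 TMM-scaled CPM in limbal cells, against 4261, 4669 and 4411 in basal cells, and did not pass (log2 fold change 0.040 ± 0.056 SE, edgeR adjusted p = 0.614). Rpsa had a log2 fold change of -0.032 ± 0.057 (SE of the fit, with an edgeR adjusted p of 0.698) and did not pass, and on total UMIs its value was 0.085. Relative to the ribosomal protein sum Rps19 differed by 0.32 and Rpsa by 0.25, among 9 members that were higher and 13 lower, beside 38.1% and 8.06% of all genes.

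The limbal difference moved with cell depth. At 2000 UMIs per cell, the third of limbal cells with the fewest UMIs had shares of 32.7, 33.00 and 32.01%, and basal cells in the same range of their class 28.1, 28.5 and 31.05%. The third of each class with the most UMIs had 28.8, 28.9 and 28.7% in limbal cells and 33.4, 33.9 and 35.6% in basal cells. Among shallow cells the limbal share was the higher one in every library, and among deep cells the lower one. Thinned to 2000 UMIs per cell, 21 members were lower in limbal cells, and without the library block in the model 29 were. Conjunctival markers summed to 2859 to 4184 CPM in limbal and 85.8 to 161 CPM in basal cells, for 6 measured markers with none at 0. Without thinning, the 626 limbal cells nearest to their own class had shares of 32.5, 31.7 and 33.3%. The 8544 basal cells nearest to theirs had 32.3, 32.9 and 34.2%, so the ranges overlapped.

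TAC1 cells, the class with replication genes, differed little from basal cells in the members. Of 84 tested 25 were higher and 0 lower, where 21.1% of all genes tested were higher and 20.5% lower. The median was 0.040 over the members and -0.024 over all genes, and 0.030 and -0.035 on the total scale. An unadjusted p under 0.05 gave 1 lower member, and DESeq2 0. The count of higher members was 9, 56 and 10 without library 1, 2 and 3 in turn, 0 without the library block and 3 at 2000 UMIs per cell. Rpsa had 4162, 4781 and 4132 TMM-scaled CPM in TAC1 cells, against 3711, 4456 and 3707 in basal cells (log2 fold change 0.14 ± 0.021 SE, edgeR adjusted p = 2.05e-08), and Rps15, a small-subunit protein near the decoding site, had a log2 fold change of 0.12. TAC1 was above basal in each library for Rpsa, while the ranges overlapped.

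TAC2 cells, the class with mitotic genes, had 77 of 84 members lower than basal cells and 1 higher, where 23.7% of all genes tested were lower and 24.9% higher. Here too the 1 higher was Rps19bp1, which does not encode a ribosomal protein. The median was -0.20 over the members and -0.016 over all genes (-0.13 and 0.055 on the total scale), and the count of lower members was 18 without the library block. Rps27rt had 145, 131 and 129 TMM-scaled CPM in TAC2 cells, against 178, 170.4 and 179 in basal cells (log2 fold change -0.38 ± 0.046 SE, edgeR adjusted p = 4.87e-07). Rps27 had 3898, 3297 and 3825, against 4686, 4334 and 5093 (log2 fold change -0.36 ± 0.041 SE, edgeR adjusted p = 2.88e-07). For both copies all TAC2 libraries lay below all basal ones. Rps26, Rpl10 and Rpl38 had log2 fold changes of -0.34, -0.34 and -0.33, and Rpsa, with -0.020, did not pass (0.051 on total UMIs).

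Cells of TAC2 with a UMI of the division genes Mki67 or Top2a had shares of 27.9, 28.02 and 29.03% at 2000 UMIs, and TAC2 cells without one 31.01, 31.3 and 31.9%. In TAC1 the shares were 29.3, 29.9 and 32.02% with and 32.2, 31.9 and 34.7% without such a UMI. In both classes and in every library the cells with a division transcript had the lower share. Depth before thinning differed as well. In TAC2 cells the median UMIs were 16666, 16121 and 8741 with such a UMI and 12297, 10118 and 6137 without. In TAC1 cells they were 18309, 12924 and 7681 with and 16622, 12977 and 7906 without. The part of depth in these shares was not tested. Relative to the ribosomal protein sum, TAC1 cells had 11 members higher and 8 lower (beside 18.1% and 25.7% of all genes), and TAC2 cells 15 and 14 (44.7% and 9.03%).

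Immune cells were few, with 26, 68 and 20 in the libraries. They had 25 of 84 members lower than basal cells and 1 higher, where 5.88% of all genes tested were lower and 6.68% higher. The 1 higher was the paralog Rpl39l, which had very few UMIs in immune cells, and no standard member was higher. Relative to the ribosomal protein sum 7 of all members were higher and 7 lower, beside 9.47% and 2.61% of all genes. The median was -0.61 over the members and -0.39 over all genes, and -0.26 and -0.13 on the total scale. Rpl31 of the large subunit had 629, 769 and 519 TMM-scaled CPM in immune cells, against 1297, 1260.1 and 1616 in basal cells (log2 fold change -1.09 ± 0.29 SE, edgeR adjusted p = 0.00237), without overlap. Rpl28, Rps15 and Rps2 had log2 fold changes of -1.02, -1.01 and -0.99. Rps29, a small zinc-binding protein, had the highest mean CPM of the standard members in immune cells, with 8785, 7513 and 9198 CPM of their own UMIs, against 6289, 5722 and 5960.3 CPM in basal cells, and did not pass the test (log2 fold change 0.15 ± 0.25 SE, edgeR adjusted p = 0.765). The count of lower members was 0, 0 and 70 without library 1, 2 and 3 in turn, and 2 by DESeq2. The sum of 5 basal markers was 2793 to 12417 CPM in immune and 20052 to 24617 CPM in basal cells, and the part of epithelial RNA in the immune values was not tested.

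With total UMIs in place of TMM, a scaling chosen after seeing the data, more members were lower than higher in each comparison but that of TAC1 cells. On this scale limbal cells had 2 members higher, Rps19bp1 among them, and 44 lower, beside 27% and 12.9% of all genes. TAC1 cells had 20 members higher and 1 lower, beside 20.2% and 22.2% of all genes. TAC2 cells had 1 member higher, Rps19bp1, and 69 lower, beside 30.7% and 17.5% of all genes. Superficial cells had 0 members higher and 84 lower, beside 20.7% and 71.1% of all genes, and against wing cells they had 0 and 84, beside 15.3% and 75.4%. Wing cells had 0 members higher and 83 lower, beside 30.4% and 48.8% of all genes, conjunctival cells had 0 members higher and 83 lower, beside 27.5% and 53% of all genes, and immune cells had 2 members higher and 29 lower, beside 8.05% and 4.2% of all genes. The medians of all genes on this scale stand beside each comparison above.

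Across the 8 comparisons 7 members passed the test in every one, among them Rpl31, Rpl36, Rpl36a, Rps15 and Rps18. Each of the 7 was lower in 7 comparisons and higher in TAC1 against basal cells. Of the members 19 were lower in 7 comparisons and 52 in 6, and no tested member failed in all. Among 11120 genes tested in every comparison, the 83 such members included, 2.07% passed in every one, 2.5% were lower in 7 and 5.42% in 6. These comparisons share the basal sums in 7 cases and are not independent of each other.

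The paralogs were uneven. Rpl3l, known from striated muscle, had 8 UMIs and Rpl10l, known from testis, 1 UMI in the whole table, and neither could be tested. Rpl39l, also known from testis, had 453 UMIs, and was listed at 20.8, 15.3 and 0 CPM in the immune sums, which rests on 5 UMIs, and its fitted log2 fold change of 3.76 in immune cells (edgeR adjusted p = 0.00358) depends on the prior count. Of 6 paralogs tested, 4 were lower in superficial, 6 in conjunctival and 5 in wing cells, where 45.2%, 40% and 38.7% of all genes were lower. The log2 fold change of Rpl22l1, the paralog of Rpl22, was -1.02 in superficial, -0.37 in conjunctival and -0.29 in wing cells. It was -0.86 in superficial, -0.38 in conjunctival and -0.36 in wing cells for Rps27l, which is induced by p53, and -0.62 in superficial, -0.35 in conjunctival and -0.28 in wing cells for Rpl7l1, a protein of ribosome precursors. Rpl22l1 was among the members higher in TAC1 cells, with a log2 fold change of 0.10 ± 0.025 (SE of the fit, with an edgeR adjusted p of 0.0005). Rps19bp1, the Rps19-binding protein, had a log2 fold change of -0.25 in superficial cells. It was higher on the TMM scale in conjunctival (0.23) and wing cells (0.14) and turned to -0.099 and -0.039 on total UMIs, and in TAC2 cells it was 0.17 on the TMM and 0.24 on the total scale. Without the library block no member was higher in TAC2, wing or conjunctival cells.

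Rack1 and Fau also stand for ribosomal proteins but carry other names and were not taken by the rule. Rack1, a signalling scaffold on the small subunit, had 350.5, 336 and 398 TMM-scaled CPM in superficial cells, against 1066, 975 and 1304 in basal cells (log2 fold change -1.62 ± 0.077 SE, edgeR adjusted p = 8.53e-12), without overlap. Its log2 fold change was -0.99 in conjunctival and -0.83 in wing cells. Fau, which is made as a fusion with a ubiquitin-like protein, had a log2 fold change of -0.18 in superficial cells.

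Genes for the assembly of ribosomes were lower in the upper layers as well. Of 39 tested, 35 were lower and 4 higher in superficial than in basal cells (median -2.12), beside 45.2% and 41.3% of all genes. In conjunctival cells 30 were lower and 7 higher (median -1.07), beside 40% and 37.3%, and in wing cells 30 were lower and 3 higher (median -0.78), beside 38.7% and 38.8%. In superficial cells Wdr12 and Nop16, which act on the precursor of the large subunit, had log2 fold changes of -3.78 and -3.53. The abundant nucleolar proteins Npm1 and Ncl had log2 fold changes of -1.57 and -1.41, Npm1 with 101, 107 and 102 TMM-scaled CPM in superficial cells, against 301, 318 and 302 in basal cells (edgeR adjusted p = 7.66e-12). The 4 that were higher were named after their values were seen. They were Sbds (2.84) and Eif6 (1.22), which both act in late large-subunit maturation, Nop10 (0.80) and Bms1 (0.48). On total UMIs the values of Nop10 and Bms1 turned to -0.36 and -0.67, and those of Sbds and Eif6 were 1.68 and 0.068. Against wing cells, superficial cells had 34 of 39 lower and 4 higher (median -1.36), beside 41.8% and 37.9% of all genes. Log2 fold changes there were -2.10 for Heatr1, which acts on ribosomal RNA, and -1.995 for Nop16.

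In TAC1 cells most assembly genes were higher than in basal cells. Of 39 tested 28 were higher and 0 lower by edgeR (beside 21.1% and 20.5% of all genes), as were 0 at an unadjusted p under 0.05 and 0 by DESeq2, with a median of 0.23 and with 10 higher without the library block and 16 by DESeq2. Nop56 and Nop58, core proteins of the particles that methylate ribosomal RNA, had log2 fold changes of 1.03 ± 0.042 and 0.78 ± 0.039 (SE; edgeR adjusted p = 2.09e-40 and 9.74e-34). Npm1 had 665, 765 and 712 TMM-scaled CPM in TAC1 cells, against 447, 473 and 449 in basal cells (log2 fold change 0.64 ± 0.028 SE, edgeR adjusted p = 4.72e-38), without overlap, and Ncl had a log2 fold change of 0.47. In TAC2 cells 9 of these genes were higher and 8 lower, beside 24.9% and 23.7% of all genes. In limbal cells 6 were higher and 5 lower, beside 21.4% and 18.8%. In immune cells the counts were 0 and 0 by edgeR, beside 6.68% and 5.88%. They were 1 and 5 there at an unadjusted p under 0.05, and 0 and 0 by DESeq2.

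Translation factors and other transcripts with a 5′ TOP motif were mostly lower in superficial, conjunctival and wing cells. In superficial against basal cells 24 of 35 translation factors were lower and 8 higher (median -0.55), and 15 of 19 other TOP transcripts were lower and 1 higher (median -0.87), beside 45.2% and 41.3% of all genes. Some genes are in both lists. Of the translation factors 22 were lower and 5 higher in conjunctival cells, beside 40% and 37.3% of all genes. In wing cells 23 were lower and 6 higher, beside 38.7% and 38.8%. In TAC1 cells 15 translation factors were higher and 6 lower, beside 21.1% and 20.5% of all genes. Of the 35 factors 2 were higher and 14 lower in limbal cells, beside 21.4% and 18.8% of all genes. In TAC2 cells 6 were higher and 13 lower, beside 24.9% and 23.7%. In immune cells the counts were 0 and 5, beside 6.68% and 5.88%. In limbal, TAC2 and immune cells 19, 16 and 30 factors passed in neither direction. The 0 higher in immune cells by edgeR were also 0 at an unadjusted p under 0.05 and 0 by DESeq2. Eef1a1, the elongation factor that brings transfer RNA, had 1022, 947 and 894 TMM-scaled CPM in superficial cells, against 3514, 3659 and 3337 in basal cells (log2 fold change -1.88 ± 0.079 SE, edgeR adjusted p = 1.86e-12), without overlap. Its log2 fold change in wing cells was -0.95. Pabpc4, a poly(A)-binding protein, had a log2 fold change of -3.16 and the start-codon factor Eif1 of 1.42 in superficial cells. The noncoding hosts of small nucleolar RNAs Snhg1 and Gas5 had log2 fold changes of -2.63 and -2.43, and Tpt1 had -0.17 ± 0.082 (SE of the fit, with an edgeR adjusted p of 0.0651) and did not pass. In wing cells 17 of 19 other TOP transcripts were lower by edgeR and 0 higher, beside 38.7% and 38.8% of all genes. The 0 higher were also 0 at an unadjusted p under 0.05 and 0 by DESeq2.

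Proteins of the mitochondrial ribosome, which are made from nuclear genes and none of which with a RefSeq entry had the pyrimidine run at its start, were mostly lower in superficial cells. On the TMM scale 52 of 78 were lower and 14 higher than in basal cells (median -0.63), beside 45.2% and 41.3% of all genes. On total UMIs 74 were lower and 3 higher (median -1.78), beside 71.1% and 20.7% of all genes. Log2 fold changes were -0.83 for Mrpl52, -2.75 for Mrps28, 1.27 for Mrps21 and 2.33 for Mrpl14. On the TMM scale 43 were lower and 14 higher in conjunctival cells (beside 40% and 37.3% of all genes), and 43 and 12 in wing cells (beside 38.7% and 38.8%). No test was made of the difference between these genes and the cytoplasmic members.

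Among 16 tested regulators of ribosomal protein synthesis, 10 were higher and 5 lower in superficial than in basal cells on the TMM scale, beside 41.3% and 45.2% of all genes. On total UMIs the balance turned, with 3 higher and 10 lower, beside 20.7% and 71.1% of all genes. Myc, the transcription factor that drives ribosome production, had 1.06, 1.30 and 1.92 TMM-scaled CPM in superficial cells, against 12.3, 11.7 and 11.1 in basal cells (log2 fold change -3.02 ± 0.17 SE, edgeR adjusted p = 1.75e-10), without overlap. Its log2 fold change was -2.66 in conjunctival, -2.14 in wing and -1.18 in TAC2 cells, and -0.87 in superficial against wing cells. Larp1, which binds 5′ TOP motifs, had a log2 fold change of 0.67 in superficial cells on the TMM scale and -0.49 on total UMIs. Eif4ebp1, an mTOR substrate that holds back translation, had 1.002 and -0.15 on these scales. The nuclear noncoding RNA Malat1 had 61503, 47222 and 48828 TMM-scaled CPM in superficial cells, against 7618, 8009 and 7434 in basal cells (log2 fold change 2.76 ± 0.094 SE, edgeR adjusted p = 2.10e-13), without overlap. Neat1 had a log2 fold change of 1.95 and Kcnq1ot1 of -2.93. The part of nuclear RNA in the lower share of the members was not tested.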

How the data were processed

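Per the labels, epithelium of pooled corneas was made into 3 libraries with a droplet 3′ kit. The submitters' processing notes name Cell Ranger 5.0.0, Seurat 4 and the build mm10, with no role or order. The authors deposited raw UMI counts per gene and cell and a table with the library and class of each cell, and 0 columns were left over. How cells were filtered and doublets handled was not stated in the sources used here, and no doublets were removed. The deposited library names carry a number for libraries 2 and 3, and the remaining name was taken as library 1.

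Counts were summed per library and class, and 8 pairs of classes were tested with edgeR 4.0.16 (quasi-likelihood F test, robust, TMM, filterByExpr, R 4.3.3). The library was a block, since both sums of a library come from the same suspension. Adjusted p are by Benjamini and Hochberg over all genes tested in a comparison, with a threshold of 0.05. A second fit took the sum of the members as the library size. Tests were also run with DESeq2 1.42.0, and 12 alternatives were tried. Tables and figures were made with Python 3.11.15 (numpy 2.4.6, pandas 2.3.3, scipy 1.17.1, matplotlib 3.10.9). The test was also run on data simulated for limbal, superficial and immune against basal cells, with the same dispersion for every gene and no library effect. Recovery of changed genes was required only for limbal and superficial cells, so the check does not cover the other comparisons.

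The members, the lists and the markers were chosen with earlier results of these data known. Genes named are the 5 highest and the 5 lowest members of a comparison, the most and least abundant members, all paralogs and Rps19bp1, members that passed in no comparison or in all, up to 4 genes of each other list (its 2 most abundant and, past the test, its 2 largest changes), Myc, Larp1, Eif4ebp1 and the markers. Not every gene that this rule takes is printed, some are not reported here, and a few members were added for comparison between classes.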

Additional observations from a re-analysis of the deposited data

How the results depend on the processing

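The counts of members lower in superficial, conjunctival and wing cells kept within 1.5 times of their main value under all 12 alternatives. Without the library block, superficial against basal cells had 79 members lower, conjunctival 81, wing 75, and superficial against wing cells 76. The block mattered for the small differences. Without it limbal cells had 29 members lower and TAC2 cells 18, immune cells 43, and TAC1 cells 0 higher, and in TAC2, wing and conjunctival cells 0 members were higher, against 1 with it. Limbal cells had 21 members lower at 2000 UMIs per cell, 45 without the tenth of cells with the most UMIs, and 44 on total UMIs, while 2, 2 and 2 were higher there and 1 with reassigned classes.

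TAC1 cells had 14 members higher without a filter on low counts, 12 by DESeq2, 3 at 2000 UMIs, 46 without the cells with the most UMIs, 72 with reassigned classes, and 9 to 56 without 1 library, and 1 member was lower on total UMIs. Rps19bp1 was the single member higher in TAC2, in wing and in conjunctival cells. The single member higher in TAC2 cells was lost by DESeq2 and with reassigned classes (0 each), and 0 to 1 were higher without 1 library. That of wing cells was lost by DESeq2, at 2000 UMIs, with reassigned classes and on total UMIs (0 each), and 0 to 1 were higher without 1 library. That of conjunctival cells was lost at 2000 UMIs, without the deepest cells and on total UMIs (0 each). In superficial against wing cells 1 member was higher with DESeq2 size factors or its test, and 0 to 1 without 1 library. Immune cells had 9 members lower with TMM computed without ribosomal and mitochondrial genes, 2 by DESeq2, 40 at 2000 UMIs, 65 without the deepest cells, 72 with reassigned classes and 0 to 70 without 1 library. Of these cells' members 0 were higher at 2000 UMIs, 2 on total UMIs and 0 to 2 without 1 library. The cause of these changes was not tested.

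The share of UMIs in the members became 31.4% at 2000 UMIs, 30.4% without mitochondrial genes and 31.7% without the deepest cells in limbal cells, 29.6 and 30.8% under the first pair of these in TAC2 cells, 5.92 and 5.88% at 2000 UMIs and without the deepest cells in superficial cells, and 26.5 and 25.5% in immune cells.

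Signs turned for some named genes. Rpsa in limbal cells had 0.10 at 2000 UMIs, 0.069 without the deepest cells, 0.076 with reassigned classes, 0.085 on total UMIs and -0.075 to 0.012 without 1 library, and Rps19 there -0.012 to 0.083 without 1 library. Rpsa in TAC2 cells had 0.0069, 0.050 and 0.051 without the deepest cells, with reassigned classes and on total UMIs, and -0.065 to 0.024 without 1 library. In superficial against basal cells Rpl36al had 0.037 with DESeq2 size factors, 0.037 by DESeq2 and -0.16 to 0.098 without 1 library. In superficial against wing cells the DESeq2 size factors and test gave 0.044 and 0.044 for Rplp0 and 0.018 and 0.018 for Rpl28, and Rplp0 had -0.044 to 0.0014 without 1 library. Total UMIs gave -0.84 for Rpl36al there, -0.039 and -0.099 for Rps19bp1 in wing and conjunctival cells, and -0.36, -0.67, -0.49 and -0.15 for Nop10, Bms1, Larp1 and Eif4ebp1 in superficial cells, which had 0.80, 0.48, 0.67 and 1.002 on the TMM scale and passed the test there.

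Depth limits the immune class most, with few cells a library. Intervals were not given for sums, since reads of the same cell are not independent, and 3 libraries of different age and sex are the only replicates.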

Other observations

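The libraries also differed from one another in single members, in the same way across classes. For 24 of the 77 standard members library 3 had the highest CPM in all 7 epithelial classes, for 12 library 2 and for 4 library 1, while 37 members had no such library. Rps15 is an example of library 3, with 276, 252 and 339 CPM in superficial cells, 794, 792 and 1204 in wing cells and 1305, 1173 and 1988 in basal cells of libraries 1, 2 and 3. Rplp0 is an example of library 2, with 2455, 2992 and 2233 CPM in superficial cells, 5006, 5905 and 4379.6 in wing cells and 6599, 7641 and 5839.6 in basal cells. These genes were chosen after their values were seen. The libraries differ in age, sex, number of mice and depth at once, with 1 library for each combination, so these cannot be told apart and no test was made.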
